A study of Homo sapiens with 12 samples.

Results

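The 39 genes described here encode the enzymes of glycolysis, the transporters and regulators around them, and genes of the response to low oxygen. They were chosen by symbol and matched through their Ensembl identifiers to both deposited count tables, which hold 61860 genes each, and all 39 were found. Glycolysis splits glucose into pyruvate in the cytosol, and lactate dehydrogenase and the monocarboxylate transporters carry surplus pyruvate out of the cell as lactate. When oxygen is scarce, the prolyl hydroxylases of the EGLN family stop marking the HIF1A protein for destruction, and the hypoxia-inducible factor raises transcription of most of these genes. Because HIF1A is controlled mainly as a protein, its transcript level says little about its activity, and cancer cells often run glycolysis hard with oxygen present.

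The data are 12 RNA-seq libraries of the prostate cancer cell line 22Rv1, of human origin, from work on phosphorylated RB, the transcription factor ETS1 and sensitivity to CDK4/6 inhibitors. ETS1 siRNA was given to the cells of 3 libraries, which have 3 controls of their own. In a second experiment siRNA against ZNF783, a zinc finger protein, was given to the cells of 3 libraries, with another 3 controls. All cells were grown in RPMI-1640 with serum, in an incubator with no reduced oxygen stated, so none of the groups is a hypoxia treatment. The sources used here do not give the siRNA sequences, what the controls received or the time of harvest. Nothing in the labels tells whether a group's replicates are different cultures, so the p-values reflect the spread among these samples alone, and that spread may be technical. In bulk RNA, fewer cells of a type and less RNA per cell cannot be told apart.

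Total counts ran from 13518177 to 48996691 per library. The ETS1 transcript had 0 to 3 counts in every library, controls included, so its loss could not be measured. The ZNF783 transcript stood at 28.7, 27.4 and 28.0 CPM with ZNF783 siRNA, against 33.9, 34.9 and 35.7 CPM in the controls. CPM here are counts scaled to a library of 1000000 after TMM scaling within each experiment. With ETS1 siRNA the ZNF783 transcript was also lower, at 12.5, 18.7 and 18.5 CPM against 21.0, 21.6 and 22.3 CPM in the ETS1 controls. ETS1 siRNA replicate 1 stood apart from its group: the chi-square per degree of freedom of its counts against the other two libraries was 40.3 and 38.9, whereas every other pair of replicates gave 1.36 to 2.93. Results with ETS1 siRNA therefore come from fits with and without that library, and each value from the fit without it is named as such. All 9 luminal prostate markers were detected in each group. The lists of leukocyte, endothelial and basal markers each summed to at most 2.39 CPM in any library. The T cell gene CD3E was at 0 counts throughout. The 4 fibroblast markers summed to more, at 58.5 to 69.1 CPM with ETS1 siRNA and 58.6 to 60.8 CPM in the ETS1 controls. Their sums in the ZNF783 experiment are given below.

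Levels of different genes were compared as CPM per kilobase of annotated exon. In the ETS1 controls the order ran from GAPDH, the dehydrogenase of the triose phase, at 1107 ± 28.1, through TPI1 at 418 ± 14.5 and ENO1 at 227 ± 4.89, down to PGAM1 at 169 ± 3.24 and LDHA at 165 ± 1.14 (SD, n = 3). The ZNF783 controls began with the same 5 genes, at 961 ± 29.6, 389 ± 6.29, 211 ± 2.46, 150.2 ± 6.55 and 118 ± 2.10 (n = 3). In both control groups the 7 highest members by this measure were TPI1 and 6 enzymes of the triose phase. Each differed from its neighbour by more than the replicate ranges, which do not cover error in the exon length. The order depends on that length. By CPM alone, GPI lay above PGAM1, at 465.5 against 434.7 CPM in the ETS1 controls and 446.7 against 385.8 CPM in the ZNF783 controls. Lower down, neighbours could not always be separated: ENO2 and HIF1A lay at 34.4 ± 0.639 and 34.3 ± 1.52 in the ETS1 controls, and HK2 and P4HA1 at 29.9 ± 0.32 and 28.9 ± 1.29.

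At the other end, the glucose transporter SLC2A3 had 2 to 16 counts per library and CA9, the carbonic anhydrase widely used as a mark of hypoxia, had 0 to 4. The floor of 3 counts corresponds to 0.0612 to 0.222 CPM. Both genes failed the expression filter in each experiment, which left 37 members tested for either siRNA. CA9 was at 0 counts in all 3 ZNF783 controls. EGLN3 and ANKRD37, which many cells induce strongly in low oxygen, stood at only 0.651 ± 0.0428 and 0.952 ± 0.147 CPM per kilobase in the ETS1 controls. ALDOA, usually an abundant enzyme, measured only 2.64 ± 0.151 CPM per kilobase. Of its annotated exon length, 55.6% overlaps other genes, and reads that overlap several genes are not counted by default in the authors' counting tool, so its level is uncertain. The same holds in part for CA9 (38.5%), ANKRD37 (35.2%), LDHB (33.4%) and GAPDH (14.2%). GAPDH also has 62 named pseudogene copies, BNIP3 39 and PGAM1 13, with which reads can be shared.

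**Figure D1:**
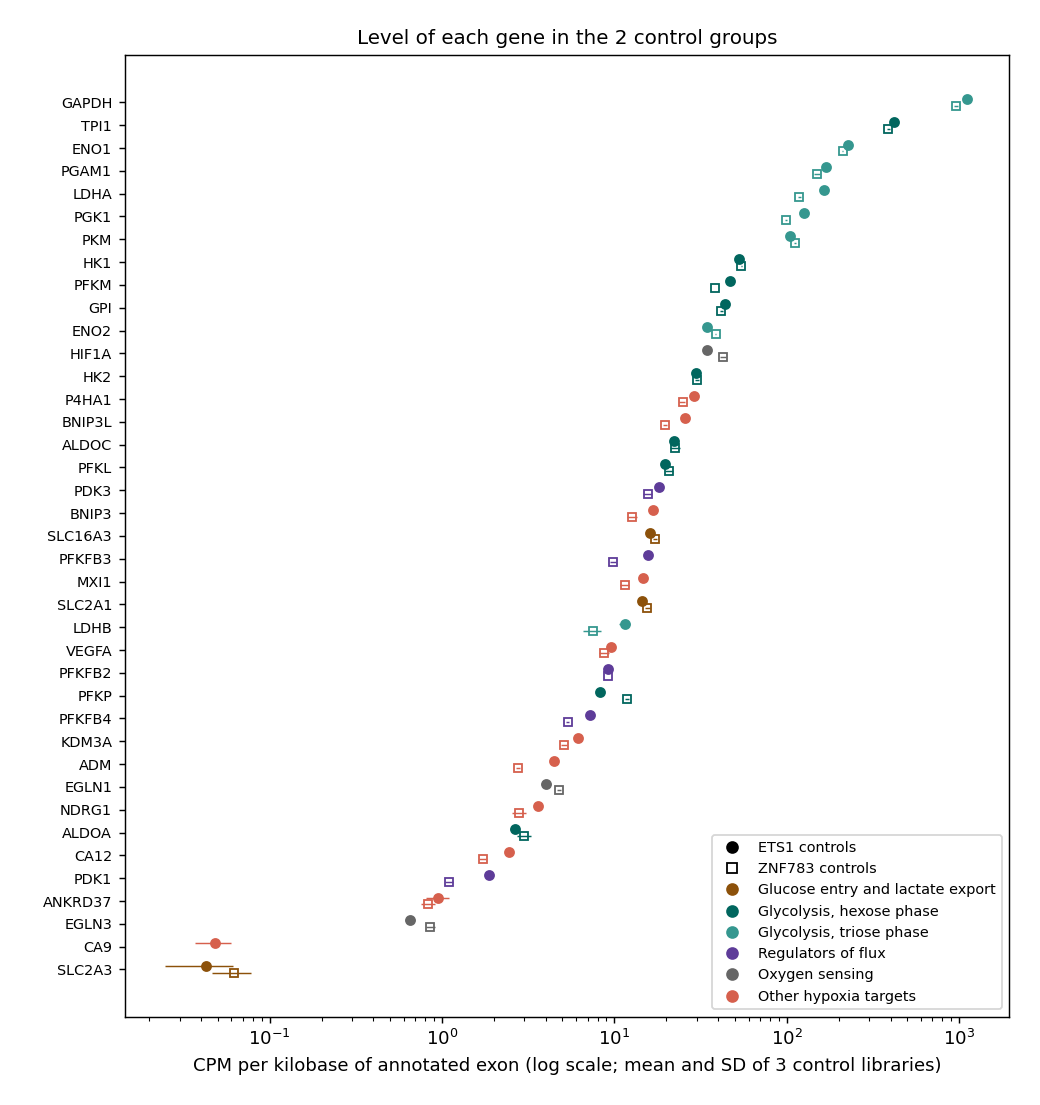
Level of each of the 39 genes in the control libraries, in CPM per kilobase of annotated exon on a log scale. Points are means of 3 libraries with SD bars, filled for the ETS1 controls and open squares for the ZNF783 controls, coloured by role. CA9, at 0 in the ZNF783 controls, has no square, and GAPDH leads both groups at 1107 and 961.

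Promoter sequences are shown for 4 genes that the results below turn on: KDM3A and BNIP3, hypoxia targets that were higher with ZNF783 siRNA, HK2, the glycolytic enzyme gene that was lowest relative to control there, and TPI1, the gene most reduced with ETS1 siRNA. They come from RefSeq (GRCh38.p14) and span 300 bases, mostly before the RefSeq start of the gene, written in the gene's own direction. KDM3A lies at chr2:86441121-86441420 (plus strand), BNIP3 at chr10:131981874-131982173 (minus), HK2 at chr2:74833877-74834176 (plus) and TPI1 at chr12:6867281-6867580 (plus). Capitals mark ACGTG or GCGTG, the core that hypoxia-inducible factors bind, on either strand, so that CACGT and CACGC are the same motifs read on the other strand and CACGTG holds ACGTG on both.
KDM3A: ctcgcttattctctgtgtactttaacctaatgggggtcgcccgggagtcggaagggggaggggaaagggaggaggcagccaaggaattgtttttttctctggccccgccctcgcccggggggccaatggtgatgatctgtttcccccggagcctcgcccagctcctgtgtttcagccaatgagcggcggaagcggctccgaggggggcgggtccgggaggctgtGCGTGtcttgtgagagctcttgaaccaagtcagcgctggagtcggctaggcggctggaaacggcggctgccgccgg
BNIP3: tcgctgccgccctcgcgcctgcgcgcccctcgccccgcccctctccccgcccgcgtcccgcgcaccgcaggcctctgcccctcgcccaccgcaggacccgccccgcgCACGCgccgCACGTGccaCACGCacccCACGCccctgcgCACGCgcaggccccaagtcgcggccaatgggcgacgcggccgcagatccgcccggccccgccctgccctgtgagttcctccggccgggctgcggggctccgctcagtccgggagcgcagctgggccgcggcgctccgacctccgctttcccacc
HK2: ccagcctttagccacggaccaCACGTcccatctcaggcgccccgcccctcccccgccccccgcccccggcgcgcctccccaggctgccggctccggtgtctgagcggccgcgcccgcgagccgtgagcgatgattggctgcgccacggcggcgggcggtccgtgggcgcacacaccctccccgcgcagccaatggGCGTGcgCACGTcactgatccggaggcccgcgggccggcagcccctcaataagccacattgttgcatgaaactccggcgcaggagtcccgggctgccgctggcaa
TPI1: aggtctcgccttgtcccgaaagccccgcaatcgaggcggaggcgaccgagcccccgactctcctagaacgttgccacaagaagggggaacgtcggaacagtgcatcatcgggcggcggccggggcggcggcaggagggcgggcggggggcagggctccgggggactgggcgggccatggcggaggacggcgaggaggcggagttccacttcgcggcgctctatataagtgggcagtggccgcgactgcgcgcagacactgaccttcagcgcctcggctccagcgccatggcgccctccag

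Of the 39 genes, 34 had a promoter of this length in the table; SLC2A3, PFKFB2, BNIP3L, VEGFA and NDRG1 were not matched. ACGTG, searched on both strands, was present in 14 of 34 (41.2%), against 21.6% of all 27305 promoters in the table. GCGTG was present in 17 (50%), against 36.3%, and at least 1 of both in 25 (73.5%), against 48.4%. BNIP3 held 2 matches to ACGTG and 4 to GCGTG, HK2 held 2 and 1, KDM3A held 0 and 1, and TPI1 held none of either. The E-box CACGTG, which contains ACGTG, was present in 5 promoters (14.7%, against 7.43% of all). GGAA, the core of ETS factor sites, was present in 31 (91.2%, against 95.5%), and the longer ETS site CCGGAAGT, which contains GGAA, in 2 (5.88%, against 4.44%), those of GPI and ANKRD37. A match describes these letters only and is not evidence of binding.

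With ZNF783 siRNA, SLC2A1, SLC16A3 and most glycolysis genes were lower before correction for GC content and length, and hypoxia targets outside glycolysis were mostly higher. With that correction, described below, 4 of 9 genes of the hexose phase were called lower and 1 higher. In the triose phase 3 of 8 were called lower, and 5 of the 10 hypoxia targets tested were called higher. The question was which transcripts change on targeting this zinc finger gene. Of 37 members tested, 23 passed an adjusted p below 0.05 (edgeR's quasi-likelihood test, Benjamini-Hochberg adjustment over all genes), 15 lower and 8 higher. Over all 17630 genes tested, 25.1% were called, 13.8% lower and 11.3% higher. The changes were small, from a log2 fold change of -0.35 to 0.32 among called members, with a median of -0.06 over all 37 against 0.0017 over all genes.

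Both measurable transporters fell. SLC16A3 (MCT4), which exports lactate, had 128.5, 134.5 and 124 CPM with ZNF783 siRNA, against 156.5, 157 and 151 CPM in the controls (log2 fold change -0.26, SE 0.0326, adjusted p = 3.92e-08). SLC2A1 (GLUT1), the basal glucose transporter, had 61.1, 63.0 and 61.9 CPM with the siRNA, against 75.7, 71.0 and 73.0 CPM in the controls (-0.24, SE 0.0406, adjusted p = 1.11e-05). Every siRNA library lay below every control library for both genes.

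In the hexose phase, which runs from glucose to the triose phosphates, 6 of 9 genes fell and 0 rose. HK2 (chromosome 2, 74833981 to 74893359, plus strand, GRCh38), the inducible hexokinase that traps glucose in the cell, had the largest change of all glycolytic members. It measured 145, 142 and 141 CPM with ZNF783 siRNA, against 181, 189 and 178 CPM in the controls, a fall of 21.7% with no overlap (log2 -0.35, SE 0.0307, adjusted p = 2.88e-12). HK1, the constitutive hexokinase, fell less, with 312, 311 and 311 CPM in siRNA libraries and 342, 345 and 343 CPM in controls (-0.14, SE 0.0258, adjusted p = 4.3e-05).

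The phosphofructokinase genes, whose products form the committed step, did not all pass. PFKP measured 49.6, 47.8 and 49.1 CPM with ZNF783 siRNA, against 57.8, 58.5 and 55.3 CPM in controls (-0.23, SE 0.0441, adjusted p = 0.000112). PFKM measured 253, 254 and 246 CPM with the siRNA, against 279, 281 and 280.4 CPM in controls (-0.16, SE 0.027, adjusted p = 1.3e-05). PFKL, the liver type, was not called (-0.05, SE 0.0314, adjusted p = 0.223), and its groups overlapped. GPI, the isomerase before this step, and TPI1, which interconverts the triose phosphates, were also called, at -0.11 and -0.10. The aldolase genes ALDOA and ALDOC were not called, at -0.07 (SE 0.0903) and -0.0047 (SE 0.0437).

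In the triose phase, which yields ATP and pyruvate, 5 of 8 genes fell and 1 rose. PKM, the pyruvate kinase gene, measured 837, 835 and 851 CPM with ZNF783 siRNA, against 949, 977 and 943 CPM in the controls (log2 -0.19, SE 0.0238, adjusted p = 5.83e-08), with no overlap. ENO1 and ENO2, the enolases, fell by 7.9% and 7.5%, also with no overlap. GAPDH and PGAM1 were called at -0.08 each, but single siRNA and control libraries overlapped. LDHB, the dehydrogenase subunit that favours lactate use, was the one gene of this phase to rise, with 27.1, 23.6 and 26.8 CPM with the siRNA and 24.1, 19.4 and 23.4 CPM in controls (0.21, SE 0.0718, adjusted p = 0.0271). Its groups overlapped as well. LDHA, the subunit that favours lactate formation, was not called (0.0099, SE 0.0248, adjusted p = 0.821).

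The regulators of flux did not move together. PFKFB3 and PFKFB4 encode bifunctional enzymes that set the level of the activator of phosphofructokinase, with PFKFB3 weighted towards making it. PFKFB3 fell, with 54.3, 53.0 and 51.3 CPM in ZNF783 siRNA libraries and 62.7, 58.0 and 60.3 CPM in controls (-0.19, SE 0.0438, adjusted p = 0.00113). PFKFB4 rose, with 36.8, 37.1 and 36.4 CPM in siRNA libraries and 33.3, 32.0 and 32.7 CPM in controls (0.17, SE 0.0524, adjusted p = 0.0115). Neither gene's groups overlapped. PDK1 and PDK3, kinases that shut off pyruvate dehydrogenase, and PFKFB2 were not called, at 0.14, 0.07 and -0.07. PDK1 had 18.3, 17.1 and 18.6 CPM with the siRNA, against 16.7, 15.4 and 16.9 CPM in controls (SE 0.0745, adjusted p = 0.182).

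None of the 3 oxygen-sensing genes was called with edgeR before correction for GC content, which is described below and under which HIF1A was called lower; EGLN3 had an unadjusted p of 0.0494. HIF1A, the oxygen-regulated subunit itself, had 208, 220.0 and 208 CPM with ZNF783 siRNA, against 218, 214 and 229.9 CPM in the controls (-0.06, SE 0.0304, adjusted p = 0.16), and the groups overlapped. EGLN1, the main HIF prolyl hydroxylase, stood at 0.03 (SE 0.0544) and EGLN3 at -0.25 (SE 0.122). DESeq2 and limma-voom likewise called none of the 3.

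Among the hypoxia targets outside glycolysis 10 were tested, of which 6 rose and 1 fell. KDM3A (chromosome 2, 86440647 to 86492716, plus strand), a histone lysine demethylase, had 83.9, 85.6 and 89.3 CPM with ZNF783 siRNA, against 72.0, 66.8 and 67.7 CPM in the controls, 1.25 times the control level (log2 0.32, SE 0.0397, adjusted p = 2.66e-08). BNIP3L, a receptor that marks mitochondria for autophagy, had 102, 106 and 106 CPM with the siRNA, against 86.9, 82.5 and 84.4 CPM in controls (0.31, SE 0.0357, adjusted p = 7.63e-09). Its relative BNIP3 had 79.0, 81.0 and 75.8 CPM with the siRNA, against 71.8, 67.7 and 63.1 CPM in controls (0.22, SE 0.0424, adjusted p = 6.83e-05). The siRNA libraries lay above all controls for each of these 3 genes.

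NDRG1, a stress-responsive gene regulated by hypoxia and androgen, had 35.2, 32.4 and 32.9 CPM with ZNF783 siRNA, against 24.9, 30.0 and 27.5 CPM in controls (0.29, SE 0.0607, adjusted p = 0.000238). MXI1, a MAX partner that opposes MYC, had 60.5, 63.0 and 63.4 CPM with the siRNA, against 49.5, 54.6 and 54.5 CPM in controls (0.23, SE 0.0446, adjusted p = 8.64e-05). P4HA1, a subunit of collagen prolyl hydroxylase, rose by 10.1% (0.14, SE 0.0385, adjusted p = 0.00561). None of these 3 overlapped between groups.

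CA12, a membrane carbonic anhydrase, was the 1 target that fell, with 11.4, 9.61 and 10.4 CPM in siRNA libraries and 12.8, 11.9 and 13.1 CPM in controls (-0.26, SE 0.0903, adjusted p = 0.0293). VEGFA, the angiogenic growth factor often read as a hypoxia response, was not called, with 124, 123 and 124.5 CPM with the siRNA and 120.0, 135 and 121.5 CPM in controls (-0.02, SE 0.0355, adjusted p = 0.779). ADM, which encodes the vasodilator adrenomedullin, was not called (0.02, SE 0.111). ANKRD37 had the largest value of all members, 0.37, but at 2.61, 2.92 and 2.81 CPM with the siRNA and 2.39, 2.05 and 2.02 CPM in controls its error was wide (SE 0.184, adjusted p = 0.147).

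**Figure D2:**
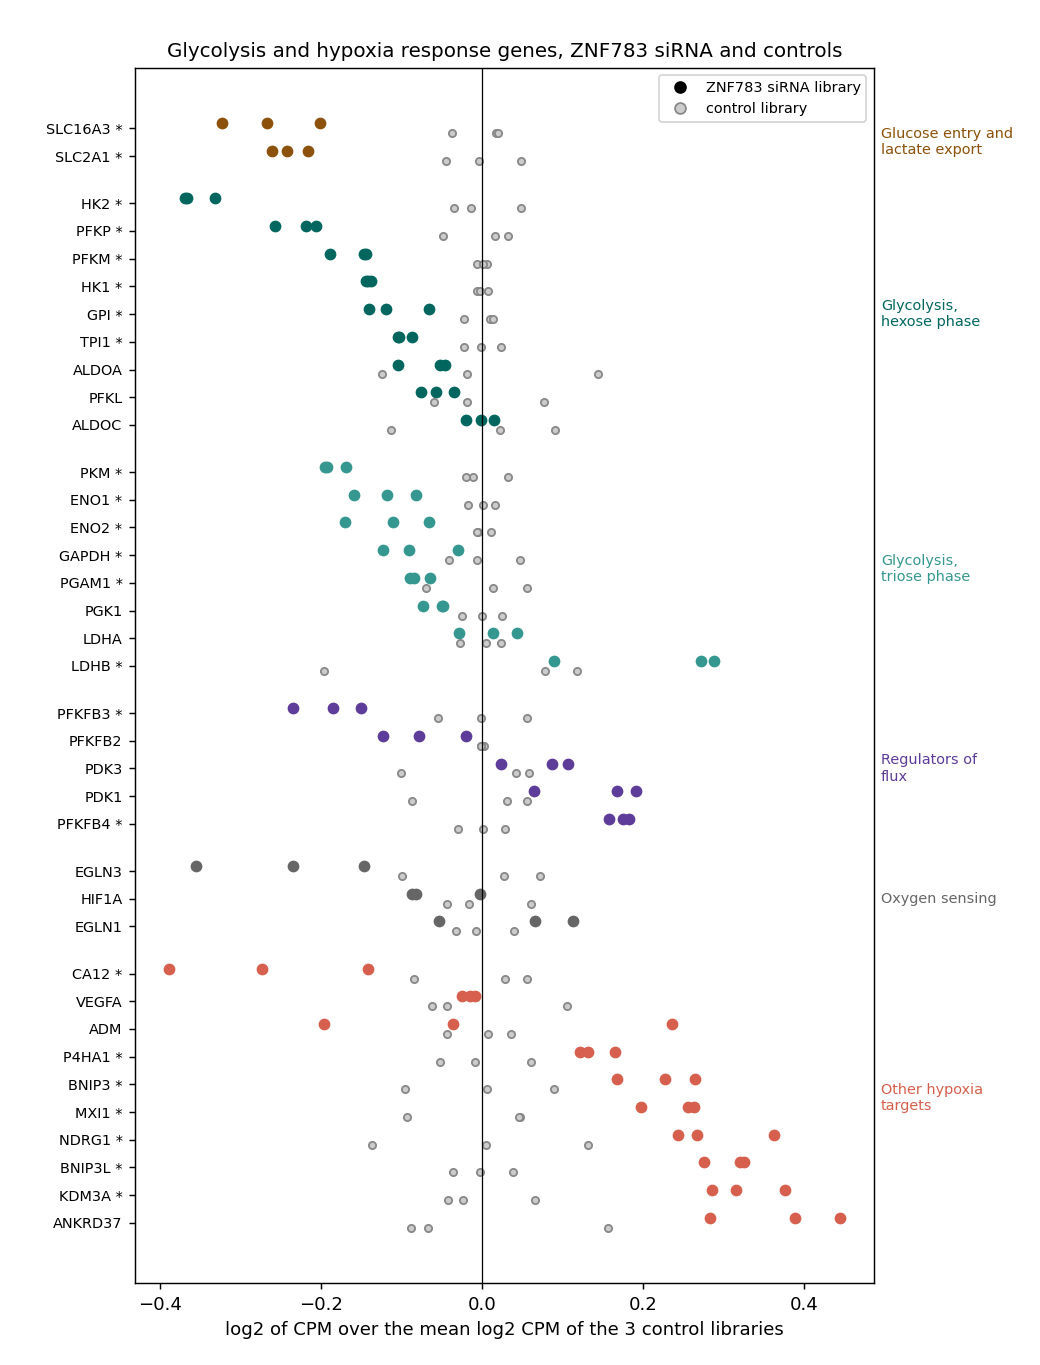
The 37 tested genes in each library of the ZNF783 experiment, as log2 of CPM over the mean of the 3 controls, grouped by role. Coloured points are siRNA libraries, grey points below them are controls, and an asterisk marks an adjusted p below 0.05. Transporters and most glycolytic enzymes lie left of 0, while KDM3A, BNIP3L, NDRG1, MXI1 and BNIP3 lie right of it.

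Several calls depended on how the base composition of the transcripts was treated. Across 17254 genes the log2 fold change with ZNF783 siRNA correlated with exonic GC content at a Spearman rho of -0.384, and across the 37 members at -0.437; genes are not independent replicates. With GC content and length corrected for, 19 members were called, 12 lower and 7 higher, against 18.9% of all genes. The correction ended the calls of TPI1, GAPDH, GPI, PGAM1, ENO2, PFKFB3, LDHB and P4HA1, and GAPDH moved to 0.0003. HK2 (-0.35), PKM (-0.13), SLC2A1 (-0.17), SLC16A3 (-0.11), KDM3A (0.26), BNIP3L (0.25), BNIP3 (0.23), NDRG1 (0.34) and MXI1 (0.20) stayed past the threshold. It added falls of HIF1A (-0.15, adjusted p = 3.88e-05), PGK1 and PFKFB2 and a rise of PFKL (0.09, adjusted p = 0.0155). DESeq2, without that correction, did not call CA12, LDHB, PGAM1 or PFKFB4 (adjusted p = 0.0753 for PFKFB4). When all 12 libraries shared 1 estimate of the spread, 7 members were called, against 4.21% of all genes (HK1, HK2, PFKP, PKM and SLC2A1 lower, BNIP3L and KDM3A higher). When ETS1 siRNA replicate 1 was left out of that fit, 22 were, against 2014 higher and 2388 lower of all 20018 genes. Leaving out single libraries of the experiment gave 19 to 22 calls and ended those of CA12, GAPDH, LDHB, PGAM1 or ENO2 only. The summed fibroblast markers, 4 genes of which COL1A2 and COL3A1 stood at 0.354 CPM or less, were also lower with ZNF783 siRNA, at 36.1 to 39.5 CPM against 42.2 to 46.1 CPM in controls, and the summed luminal markers at 3210 to 3230 against 3440 to 3480 CPM. Their part in the result was not tested.

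With ETS1 siRNA no member passed the test over all 6 libraries, although 30 of 37 had a log2 fold change below 0, against 9518 of all 19542 genes. Here the question was which transcripts change on targeting ETS1. Over all 19542 genes only 0.0461% were called. The median of the 37 was -0.17, against 0.0066 over all genes. At an unadjusted p below 0.05, 16 members passed, all lower, against 18.1% of all genes in either direction. DESeq2 called 3, which were TPI1, PFKFB4 and ALDOC, and limma-voom called TPI1 alone. Of all 19542 genes, DESeq2 called 346 higher and 362 lower. For 23 of 37 members all 3 siRNA libraries lay below all 3 controls, which was so for 17.8% of all genes tested.

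Without ETS1 siRNA replicate 1, 23 of 37 members were called, 22 lower and 1 higher, with a median of -0.12. Over all 20237 genes tested that way, 23.0% were called, 13.0% lower and 9.96% higher. Adding the correction for GC content and length gave 18, of which 17 were lower, against 19.0% of all genes; it ended the calls of ADM, HK1, PFKP, PKM, SLC2A1 and SLC16A3 and added P4HA1. In the outlying library itself the members' median was -0.30, against -0.13 and -0.12 in replicates 2 and 3. The 3 medians, all taken against the same controls, shared a direction but not a size. For single members, replicate 1 lay below all 5 other libraries of the experiment in 25 of 37 and above them in 7.

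TPI1 (chromosome 12, 6867119 to 6870948, plus strand), triose-phosphate isomerase, changed most. It had 689.9, 777 and 807 CPM with ETS1 siRNA, against 1105, 1109 and 1175 CPM in the controls, and the groups lay far apart. The log2 fold change was -0.58 over all 6 libraries (SE 0.0699, adjusted p = 0.0571) and -0.52 without replicate 1 (SE 0.0286, adjusted p = 6.11e-21). With ZNF783 siRNA the same gene had been lower by only 6.6%. Reads of TPI1 can be shared with 4 named pseudogene copies.

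The rest of the hexose phase moved less. HK2 had 132, 161 and 157 CPM with ETS1 siRNA, against 183, 182 and 179 CPM in the controls, with no overlap (-0.27, adjusted p = 0.19; without replicate 1 -0.19, SE 0.0302, adjusted p = 1.19e-06). PFKL was the exception to the direction: replicate 1, at 142 CPM, lay below the controls at 179, 169.5 and 180.2 CPM, while replicates 2 and 3, at 192 and 195 CPM, lay above them. It was called higher without replicate 1 (0.13, SE 0.0307, adjusted p = 0.00118) and stood at 0.0009 with it. GPI, ALDOC, PFKP and HK1 were called lower without replicate 1, at -0.15, -0.21, -0.12 and -0.08, and stood uncalled at -0.15, -0.25, -0.16 and -0.09 with it. PFKM lay outside the range of the other libraries in replicate 1 only, at 206 CPM against 327.5 and 341 CPM in replicates 2 and 3 and 339, 342 and 353 CPM in controls.

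In the triose phase 6 of 8 genes were called lower without replicate 1 and 0 higher. ENO2, the enolase typical of neuronal and neuroendocrine cells, had 85.5, 124 and 123 CPM with ETS1 siRNA, against 150.0, 145 and 147 CPM in controls (-0.41, adjusted p = 0.216; without replicate 1 -0.26, SE 0.0314, adjusted p = 1.54e-09). GAPDH had 3104, 2842 and 2872 CPM with the siRNA, against 3329, 3205 and 3365 CPM in controls (-0.17, adjusted p = 0.209; without replicate 1 -0.21, SE 0.0265, adjusted p = 3.58e-09). In both genes the siRNA libraries lay below all controls, but replicate 1 was the lowest of its group for ENO2 and the highest for GAPDH. PGK1, ENO1, PKM and LDHA were called at -0.18, -0.15, -0.12 and -0.11 without replicate 1, and stood uncalled at -0.33, -0.29, -0.15 and -0.16 with it.

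The lactate exporter SLC16A3 shows how far replicate 1 could depart: it had 57.4, 131 and 134 CPM with ETS1 siRNA, against 142, 140.3 and 149 CPM in controls. The log2 fold change was -0.42 over all 6 libraries (SE 0.286, adjusted p = 0.436) and -0.13 without replicate 1 (SE 0.032, adjusted p = 0.00206). That call was lost with the GC and length correction (0.0015, adjusted p = 0.981). SLC2A1 had 53.3, 61.6 and 60.3 CPM with the siRNA, against 66.7, 66.1 and 70.9 CPM in controls, with no overlap (-0.22, adjusted p = 0.224; without replicate 1 -0.16, adjusted p = 0.000623). The GC and length correction ended this call too (-0.09, adjusted p = 0.0529).

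All regulators of flux except PDK3 were lower without replicate 1. PFKFB4 had 23.8, 34.0 and 34.4 CPM with ETS1 siRNA, against 43.8, 43.6 and 45.5 CPM in controls (-0.52, SE 0.137, adjusted p = 0.163; without replicate 1 -0.38, SE 0.0433, adjusted p = 2.87e-10). PFKFB3 had 56.3, 76.5 and 83.0 CPM with the siRNA, against 93.6, 94.7 and 97.3 CPM in controls (-0.40, adjusted p = 0.216; without replicate 1 -0.27, SE 0.0356, adjusted p = 2.8e-08). Every siRNA library lay below every control for both genes. PDK1 did not behave alike across replicates, with 30.2, 24.1 and 23.9 CPM with the siRNA and 28.1, 28.5 and 27.6 CPM in controls. It was at -0.11 over all libraries (adjusted p = 0.55) and at -0.23 without replicate 1 (SE 0.0501, adjusted p = 0.000325). PFKFB2 was at -0.12 without replicate 1 (adjusted p = 0.00407) and at -0.24 with it (adjusted p = 0.302).

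HIF1A (chromosome 14, 61695513 to 61748259, plus strand) had 302, 183 and 179 CPM with ETS1 siRNA, against 181, 182 and 168 CPM in the controls. Replicate 1 alone was high, and the other two lay among the controls or just above them. The log2 fold change was 0.32 with it (SE 0.195, adjusted p = 0.388) and 0.03 without it (SE 0.032, adjusted p = 0.568), or -0.06 with GC content and length also corrected for (adjusted p = 0.131). EGLN1 had 15.6, 24.97 and 25.3 CPM with the siRNA, against 31.6, 27.9 and 28.4 CPM in controls, with no overlap (-0.41, adjusted p = 0.285; without replicate 1 -0.22, SE 0.0521, adjusted p = 0.000743). EGLN3, at under 6 CPM, was not called either way.

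Of the 10 other hypoxia targets, 3 were called lower without replicate 1 and 0 higher. NDRG1 had 31.9, 27.8 and 29.4 CPM with ETS1 siRNA, against 35.2, 34.0 and 37.1 CPM in controls (-0.26, SE 0.0762, adjusted p = 0.188; without replicate 1 -0.32, SE 0.0481, adjusted p = 3.76e-07). BNIP3 had 82.9, 78.6 and 79.95 CPM with the siRNA, against 87.3, 88.6 and 92.8 CPM in controls (-0.15, SE 0.0554, adjusted p = 0.237; without replicate 1 -0.19, SE 0.0349, adjusted p = 3.53e-05). ADM had 7.198, 9.42 and 10.9 CPM with the siRNA, against 12.3, 12.6 and 11.4 CPM in controls (-0.38, adjusted p = 0.25; without replicate 1 -0.26, SE 0.0781, adjusted p = 0.0107). The siRNA libraries lay below all controls for each of the 3.

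VEGFA had 137, 132 and 131 CPM with ETS1 siRNA, against 137, 133 and 144 CPM in controls, and was not called with or without replicate 1 (-0.05 and -0.08). KDM3A, BNIP3L and MXI1 lay between 0.0032 and 0.05 without replicate 1 and were not called. Their values in replicate 1 were higher than in all other libraries of the experiment, at 88.1, 126 and 76.7 CPM. The correlation of the log2 fold change with GC content was -0.504 across 18990 genes with replicate 1 and -0.363 across 19622 genes without it, and -0.429 and -0.385 across the 37 members.

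**Figure D3:**
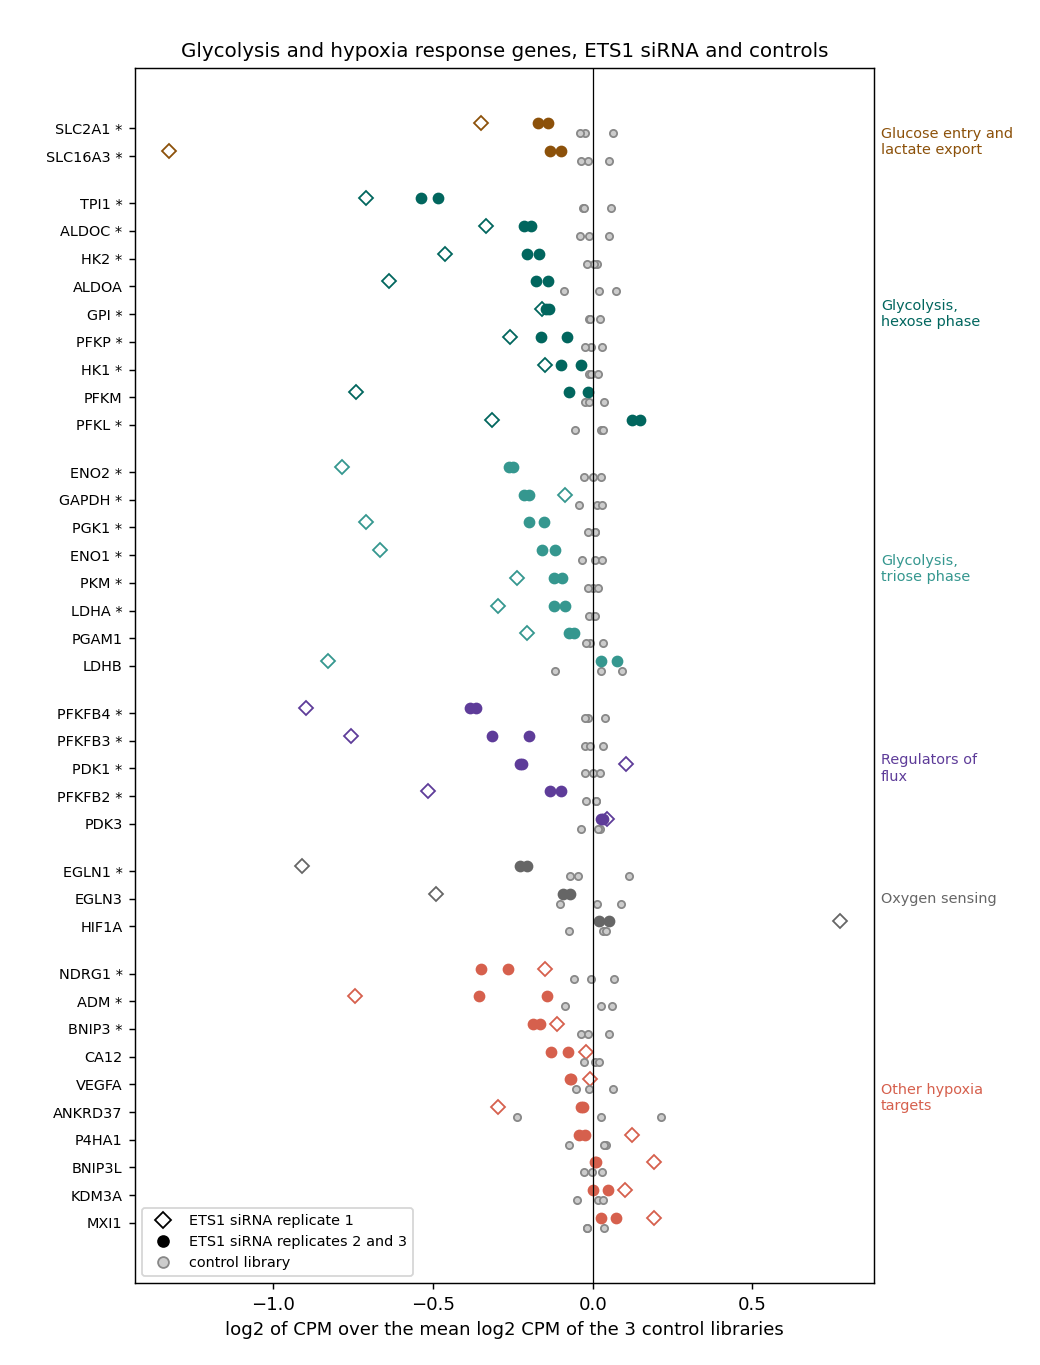
The 37 tested genes in each library of the ETS1 experiment, as log2 of CPM over the mean of the 3 controls. Open diamonds are ETS1 siRNA replicate 1, filled points replicates 2 and 3, grey points the controls, and an asterisk marks an adjusted p below 0.05 without replicate 1. Replicate 1 lies farthest from 0 for SLC16A3 on the left and for HIF1A, at 302 CPM, on the right.

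The responses to both siRNAs were set against each other, each measured from its own controls, by testing the difference of the log2 fold changes (ETS1 siRNA minus ZNF783 siRNA). The difference was called for 4 of 38 members tested, all negative: TPI1, PFKFB4, NDRG1 and BNIP3. Over all 19594 genes 1.68% were called. For TPI1 the difference was -0.46 (SE 0.0717, adjusted p = 0.00629), the values of the 2 siRNAs being -0.58 and -0.10 in their own experiments. For PFKFB4 (-0.68, SE 0.148, adjusted p = 0.0367), NDRG1 (-0.53, SE 0.11, adjusted p = 0.0278) and BNIP3 (-0.36, SE 0.0773, adjusted p = 0.0338), all 3 ETS1 siRNA libraries lay below their controls and all 3 ZNF783 siRNA libraries above theirs. Leaving out any 1 of the ETS1 control or ZNF783 siRNA libraries left 1 call, TPI1, and leaving out others left 1 to 3, apart from ETS1 siRNA replicate 1.

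Without ETS1 siRNA replicate 1 the difference was called for 18 members, 15 negative and 3 positive, against 13.7% of the 20018 genes tested. The 4 genes above were among them, together with BNIP3L (-0.30, adjusted p = 2.77e-06), KDM3A (-0.30, adjusted p = 3e-05) and PDK1 (-0.37, adjusted p = 0.00164). The positive ones were HK2 (0.16, adjusted p = 0.00491) and SLC16A3 (0.13, adjusted p = 0.042), which fell more with ZNF783 siRNA, and PFKL (0.18, adjusted p = 0.00304). For SLC16A3 the value over all 12 libraries had the other sign, -0.14 (SE 0.324).

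Of the 22 members called lower with ETS1 siRNA without replicate 1 and the 15 called lower with ZNF783 siRNA, 12 were on both lists: HK1, HK2, GPI, PFKP, TPI1, GAPDH, ENO1, ENO2, PKM, SLC2A1, SLC16A3 and PFKFB3. Of all 17548 genes tested in both, 5.42% were called lower in both. With the GC and length correction in both experiments 4 members were called lower in both, HK2, ENO1, PGK1 and PFKFB2, against 2.68% of all genes. A further 3, PFKFB4, BNIP3 and NDRG1, were called in opposite directions, with or without that correction. No member was called higher with both without the correction, and PFKL was with it. The shares of all genes called in opposite directions or higher with both were not counted here. Neither count can thus be read as particular to these members. HK1, SLC2A1 and PKM gave no called difference between the siRNAs with or without replicate 1, at 0.06 (SE 0.0519), 0.04 (SE 0.082) and 0.05 (SE 0.0557) over all 12 libraries. For PKM the GC and length correction without replicate 1 did give a call (0.08, adjusted p = 0.0389).

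**Figure D4:**
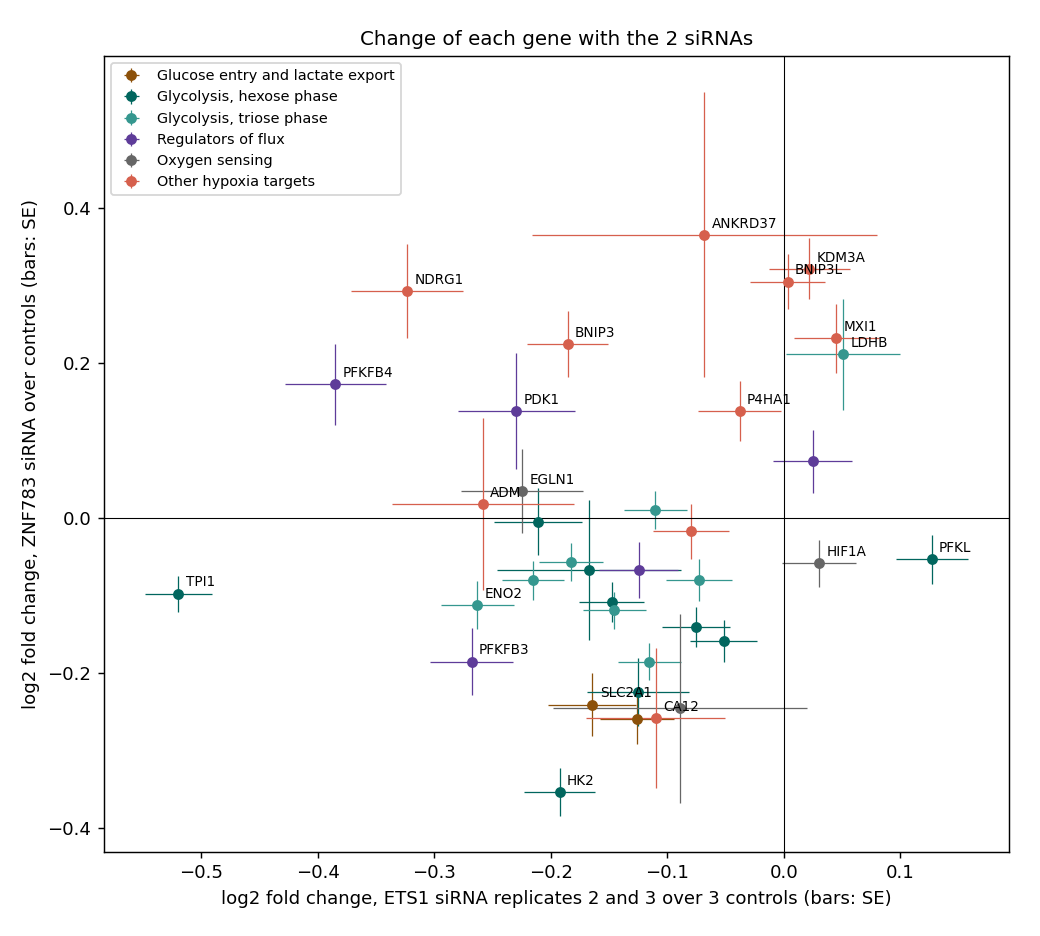
Log2 fold change of the 37 genes with ETS1 siRNA, without replicate 1 (horizontal axis), and with ZNF783 siRNA (vertical axis), with SE bars and coloured by role. Most glycolytic enzymes and both transporters lie in the lower left, NDRG1, BNIP3 and PFKFB4 in the upper left, and TPI1 farthest left at -0.52.

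The control groups also differed in most members, 21 of 37 being higher and 9 lower in the ETS1 controls with no overlap. However, CPM were scaled within each experiment, and the experiment cannot be told apart from any batch. The share of all genes that separated this way was not counted here, so the counts cannot be read as particular to these members. PDK1 averaged 28.0 ± 0.448 CPM in the ETS1 controls and 16.3 ± 0.848 CPM in the ZNF783 controls (SD, n = 3 each). LDHA averaged 1023 ± 7.06 CPM in the ETS1 controls and 734 ± 13.1 CPM in the ZNF783 controls, and PFKFB3 95.2 ± 1.89 CPM in the ETS1 controls and 60.3 ± 2.30 CPM in the ZNF783 controls. PFKP ran the other way, at 40.0 ± 0.729 CPM in the ETS1 controls and 57.2 ± 1.66 CPM in the ZNF783 controls. HK2 averaged 181 ± 1.94 CPM in the ETS1 controls and 183 ± 5.47 CPM in the ZNF783 controls, with overlapping libraries.

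The wider pathways were read from 5 further lists of 119 genes, whose counts stand beside the shares of all genes called: 13.8% lower and 11.3% higher with ZNF783 siRNA, and 13.0% lower and 9.96% higher with ETS1 siRNA without replicate 1. Among 19 tested genes of glycolysis and gluconeogenesis outside the 39, 7 fell and 1 rose with ZNF783 siRNA. The 1 that rose was the glucose transporter gene SLC2A12 (0.23, SE 0.0639, adjusted p = 0.00582). TIGAR, a phosphatase that restrains glycolysis, had 1.24, 1.37 and 1.33 CPM with the siRNA, against 1.84, 2.05 and 2.54 CPM in controls (-0.72, SE 0.223, adjusted p = 0.0133). The transporter SLC2A6 (-0.41), the mitochondrial gluconeogenic enzyme gene PCK2 (-0.30) and pyruvate carboxylase, PC (-0.28), were also lower. With ETS1 siRNA without replicate 1, 3 fell and 1 rose, close to the share of all genes (23.0% in either direction). They included the lactate transporter gene SLC16A7 (0.30, but 0.55 with replicate 1), the glucose-6-phosphatase subunit G6PC3 (-0.25) and BSG (-0.23), the chaperone of lactate transporters. Over all 6 libraries of that experiment edgeR called 0 of the 106 tested genes of the 5 lists. Its unadjusted p was below 0.05 for 25 of them, against 18.1% of all genes. DESeq2 called 9, against 346 higher and 362 lower of all 19542 genes, and limma-voom called IGFBP3 alone.

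Of 28 tested genes of pyruvate entry and the citric acid cycle, 4 fell and 3 rose with ZNF783 siRNA, near the 25.1% of all genes called in either direction, with OGDH, a subunit of oxoglutarate dehydrogenase, lowest (-0.23). With ETS1 siRNA without replicate 1, 9 fell and 4 rose, against 23.0% of all genes. PDK4, another pyruvate dehydrogenase kinase, was highest, with 31.8, 25.9 and 26.4 CPM with ETS1 siRNA against 19.5, 17.9 and 17.8 CPM in controls (0.50, SE 0.0547, adjusted p = 9.97e-11 without replicate 1), whereas PDK2 was lower without replicate 1 (-0.32). Over all 6 libraries PDK2 was at -0.11 (adjusted p = 0.706), since replicate 1, at 22.4 CPM, lay above the controls at 18.3 to 19.1 CPM. With ZNF783 siRNA PDK4 had 104, 110.5 and 106 CPM, against 106, 96.8 and 105 CPM in controls. The difference between the siRNAs was called (0.56, SE 0.107, adjusted p = 0.0192).

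In the pentose phosphate pathway 1 of 10 genes fell with ZNF783 siRNA, PGD (-0.09), and 4 fell with ETS1 siRNA without replicate 1, against 13.8% and 13.0% of all genes called lower. Of 13 tested genes of the HIF machinery, 2 fell and 1 rose with ZNF783 siRNA, near the 25.1% of all genes called in either direction, the largest being the HIF competitor CITED2 (-0.13). With ETS1 siRNA without replicate 1, 4 fell, led by ARNT2, a partner subunit of HIF (-0.44, SE 0.0548, adjusted p = 4.06e-09; -0.46 over all 6 libraries, adjusted p = 0.0859).

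Among 36 tested further hypoxia-induced genes, 8 rose and 4 fell with ZNF783 siRNA, and 2 rose and 13 fell with ETS1 siRNA without replicate 1. The difference between the siRNAs was called for 2 of the 36, AK4 and ERO1A. IGFBP3, an insulin-like growth factor binding protein, was lower with both, at 217, 229 and 225.5 CPM with ZNF783 siRNA against 311, 304 and 314 CPM in controls (-0.47), and at 78.9, 75.4 and 72.7 CPM with ETS1 siRNA against 104.4, 104.2 and 106 CPM in controls (-0.51 without replicate 1). STC1, a secreted glycoprotein gene, was lower with ZNF783 siRNA (-0.42) and without ETS1 siRNA replicate 1 also with ETS1 siRNA (-0.30). Over all 6 libraries STC1 was at -0.13 (adjusted p = 0.594), as replicate 1, at 22.9 CPM, lay above the controls at 19.9 to 20.9 CPM. The transcriptional repressor gene BHLHE40 was lower with ETS1 siRNA without replicate 1 (-0.45) and its relative BHLHE41 rose with ZNF783 siRNA (0.30). The mitochondrial adenylate kinase gene AK4 rose with ZNF783 siRNA (0.24) and was lower with ETS1 siRNA without replicate 1 (-0.14), and the difference was called (-0.35, SE 0.0553, adjusted p = 0.00737). ERO1A, an oxidase of the endoplasmic reticulum, had 119, 95.7 and 95.5 CPM with ETS1 siRNA, against 69.7, 71.4 and 70.6 CPM in controls (0.43, adjusted p = 2.17e-15 without replicate 1; 0.55, adjusted p = 0.0976 with it), and its difference between the siRNAs was called (0.47, SE 0.105, adjusted p = 0.042).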

How the data were processed

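The authors deposited unnormalized counts of reads, 1 table an experiment. Per the file headers, featureCounts 2.0.1 counted paired-end reads in exons, grouped by gene identifier, with an Ensembl annotation of release 107. The submitters' processing notes name hg38. No strand option is shown, so overlapping genes on opposite strands were not told apart, although the kit marks strand per the labels' protocols. The sources used here give no aligner version.

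Each siRNA group was set against the controls of its experiment in edgeR 4.0.16 (R 4.3.3), by a robust quasi-likelihood F test with the group as the only term, after the default expression filter and TMM scaling. The difference of both effects was tested in 1 fit of all 12 libraries. Adjusted p-values are Benjamini-Hochberg values over every gene in the fit, with a call below 0.05, and the SE was taken from the F statistic. Alternatives were DESeq2 1.42.0, limma-voom (limma 3.58.1), other scalings and filters, a replicate block, a loess offset on GC content and length, joint fits and leaving out each library. Gene positions, exon lengths and GC content come from GENCODE 29 (GRCh38). The scripts were tested on simulated data. No replicate pair agreed within sampling noise, so none was merged. The floor of 3 counts covers counting error only.

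The 39 genes, the 5 further lists and the tests were chosen with earlier results of these data known. Values per library were given for members called in either comparison or for their difference, for HIF1A, VEGFA, CA9 and PDK1, and for the 8 called members most changed with ETS1 siRNA without replicate 1; as over 25 qualified, those most changed in each role are given in full. From each further list up to 4 called genes per comparison are named, and SLC2A12 in addition as the 1 riser of its list with ZNF783 siRNA. The values of some genes of these lists are not reported here.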

Additional observations from a re-analysis of the deposited data

Results flagged for a closer look

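The effect of ETS1 siRNA differed from that of ZNF783 siRNA, by a test of the difference itself over all 12 libraries, for 4 genes. TPI1 had a difference of -0.46 on the log2 scale (adjusted p = 0.00629, edgeR), and its ETS1 siRNA libraries were lower than their controls in 3 of 3 cases, as were its ZNF783 siRNA libraries. PFKFB4 had a difference of -0.68 (adjusted p = 0.0367), NDRG1 of -0.53 (adjusted p = 0.0278) and BNIP3 of -0.36 (adjusted p = 0.0338), each lower in 3 of 3 ETS1 siRNA libraries and higher in 3 of 3 ZNF783 siRNA libraries. TPI1 stayed past the threshold under every alternative run. The other 3 lost their call at an adjusted p below 0.01 and when any 1 of the ETS1 control or ZNF783 siRNA libraries was left out. Without ETS1 siRNA replicate 1 all 4 differences were called, at -0.42, -0.56, -0.62 and -0.41 for TPI1, PFKFB4, NDRG1 and BNIP3.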

How the results depend on the processing

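With ETS1 siRNA 0 members were called over 6 libraries. That became 1 with no expression filter, with limma-voom or with the GC and length correction, and 3 with DESeq2. It was 11 with all 12 libraries in 1 fit and 20 with limma-voom quality weights, which gave replicate 1 a weight of 0.0931. Of all 19542 genes, the GC and length correction called 21 higher and 21 lower, DESeq2 346 and 362, and the quality weights 1813 and 1921. The joint fit called 975 higher and 900 lower of 19594 genes. Leaving out single libraries gave 0 to 23 called members, where 23 was without ETS1 siRNA replicate 1 and 0 without any other. The count of members was 18 with the GC correction too, and 24 in a fit of the other 11 libraries, chosen after seeing the data. That fit of 11 libraries called 1923 higher and 2614 lower of all 20018 genes. With ZNF783 siRNA 23 members were called, 19 to 22 without single libraries, 19 with the GC correction or DESeq2, and 7 with all 12 libraries in 1 fit. DESeq2 there called 1220 higher and 1476 lower of all 17630 genes. The difference was called for 4 members, for 8 with no expression filter, 12 with quality weights and 7 with the GC correction. It was called for 20 with that correction when ETS1 siRNA replicate 1 was left out. At an adjusted p below 0.01 it was called for 1, and without single libraries for 1 to 18. Of all 19594 genes, quality weights called 1349 higher and 1060 lower, and the GC correction 397 and 289. That correction without ETS1 siRNA replicate 1 called 1555 higher and 1603 lower of 20018 genes. Same-numbered siRNA and control libraries did not deviate together (r from -0.043 to 0.064), so the numbers were not taken as pairs; with the replicate block 0 members were called with ETS1 siRNA, 23 with ZNF783 siRNA and 1 for the difference, or 2 with the block and the GC correction. Directions of values called in at least 1 of the fits compared turned for P4HA1 with ETS1 siRNA under the GC correction without replicate 1 (-0.11), for PFKL (0.0854; with the block 0.0831) and GAPDH (0.0003) with ZNF783 siRNA under the GC correction, and for the differences of SLC16A3 (-0.32 to 0.13 over fits that each left out 1 library, where ETS1 siRNA replicate 1 gave 0.13, or 0.11 once GC was corrected) and PFKM (0.12 with both). With the GC correction 7 members changed sign with ZNF783 siRNA (also ALDOA, ALDOC, EGLN1, LDHA and VEGFA, all uncalled), and 5 with ETS1 siRNA without replicate 1 (BNIP3L, HIF1A, KDM3A, PDK3 and SLC16A3). The cause was not tested. Counts near the floor of 3 left CA9 and SLC2A3 without a test in the main fit of each experiment. For the difference, CA9 was not tested and SLC2A3 was tested but not called (-0.79, SE 0.69, adjusted p = 0.648, edgeR).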
